A study of Mus musculus with 52 samples.

Results

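SmcHD1 peaks of wild-type (wt) cells that lay on an autosomal CTCF or cohesin site were examined. Members were chosen by overlap of the peak lists: an SmcHD1 wt peak counted if it shared at least 1 bp with a wt peak of CTCF or of the cohesin subunit Rad21, on chromosomes 1 to 19 without chromosome 5 and without the segment of chromosome 1 from 85 to 86 Mb. This gave 1357 members, of 3201 SmcHD1 wt peaks on the same chromosomes and of 6993 SmcHD1 wt peaks in all. The cells were clonal female mouse embryonic fibroblasts (MEFs) from F2 embryos of a cross between FVB and M.m.Castaneus, whose autosomes are a mosaic of both strains. The wt lists came from clone Wt2A1, the mut lists from clone Mut5A6, which carries the germline SmcHD1 allele MommeD1 (also spelled MomeD1), and the somKO lists from the CRISPR KO clones A3-3 and D4, which were made in another wt clone. Each genotype thus rests on 1 or 2 clones, and clone and genotype cannot be told apart.

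SmcHD1 is a non-canonical SMC protein with a hinge domain and an ATPase of the GHKL type, known for its part in silencing of the inactive X chromosome and of some imprinted and clustered autosomal genes. CTCF is a zinc finger protein that binds a defined DNA motif and acts as an insulator. Cohesin is a ring complex with Rad21 as its closing subunit. It extrudes chromatin loops, which come to a halt at CTCF sites, and it is also found at active promoters without CTCF.

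Each list came from merged replicates. The somKO lists merged 4 libraries each, the wt and mut lists of CTCF and SmcHD1 merged 3, and those of Rad21 merged 2. The lists held 60204, 57798 and 69736 CTCF peaks and 67655, 66031 and 89974 Rad21 peaks in wt, mut and somKO, so that a peak had more chance of a match in the longer somKO lists. Chromatin was fixed with EGS and formaldehyde for SmcHD1 and Rad21 and with formaldehyde alone for CTCF. The SmcHD1 mut list, from cells without the protein, held 244 peaks and served as the background of the antibody. Peaks are ranked below by the percentile of their deposited score within their own list, where 100 is the strongest.

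Members differed in sequence, and stretches from several of them are shown to make the classes concrete. All are from mm10 and are printed 5′ to 3′ on the strand that carries the motif in capitals. The first group holds the CTCF core consensus. That of Fbp2 (chr13:62856310-62856445), on the minus strand, lay at a promoter. Those near Gm47297 (chr11:120262753-120262904) and near 1700071K01Rik (chr11:81534796-81534947), also on the minus strand, lay in introns and are named by the nearest start. They were taken from members with both partners and no SmcHD1 mut peak, and stand for members in which CTCF meets its own motif.
Fbp2: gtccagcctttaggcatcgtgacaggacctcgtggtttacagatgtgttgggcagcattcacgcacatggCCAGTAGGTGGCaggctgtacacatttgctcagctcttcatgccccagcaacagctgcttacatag
Gm47297: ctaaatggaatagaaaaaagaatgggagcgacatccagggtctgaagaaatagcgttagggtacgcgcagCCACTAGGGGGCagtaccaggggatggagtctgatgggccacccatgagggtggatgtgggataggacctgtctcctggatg
1700071K01Rik: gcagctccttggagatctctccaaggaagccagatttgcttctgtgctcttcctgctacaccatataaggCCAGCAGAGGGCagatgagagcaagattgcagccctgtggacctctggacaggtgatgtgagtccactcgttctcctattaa

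The second group shows the NRF1 motif GCGCNTGCG, in capitals, outside the CTCF core class. The stretch of Peg3 (chr7:6729383-6729531, plus strand) represents the imprinted genes. The stretches of Gm13289 (chr4:88776633-88776781) and Gm13284 (chr4:88763420-88763568), both on the minus strand, are from repeated units of the interferon zeta cluster. They show how alike the units of that cluster are. The last (chr6:114507023-114507171, plus strand) is from the interval between Hrh1 and Atg7, from a member with CTCF only in wt (score 574), whose partner was absent from mut and somKO.
Peg3: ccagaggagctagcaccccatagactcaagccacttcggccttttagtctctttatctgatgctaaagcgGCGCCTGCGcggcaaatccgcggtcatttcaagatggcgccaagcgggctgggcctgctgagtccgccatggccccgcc
Gm13289: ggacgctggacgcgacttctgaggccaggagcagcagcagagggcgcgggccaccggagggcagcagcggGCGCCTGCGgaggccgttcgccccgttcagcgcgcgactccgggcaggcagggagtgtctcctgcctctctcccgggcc
Gm13284: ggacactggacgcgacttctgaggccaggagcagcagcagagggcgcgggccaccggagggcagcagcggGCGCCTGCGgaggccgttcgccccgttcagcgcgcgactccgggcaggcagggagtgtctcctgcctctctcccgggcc
Hrh1 to Atg7: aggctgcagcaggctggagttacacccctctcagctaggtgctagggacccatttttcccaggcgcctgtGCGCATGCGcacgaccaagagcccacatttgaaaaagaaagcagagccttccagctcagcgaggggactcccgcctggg

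Members made up 42.4% of the SmcHD1 wt peaks on these chromosomes (95% interval 40.7 to 44.1). Both CTCF and Rad21 were present at 591 members (43.6%), Rad21 alone at 535 (39.4%) and CTCF alone at 231 (17.0%). Members were not the strongest SmcHD1 peaks: the share of members was 39.7% in the lowest quartile of the SmcHD1 score and 41.2% in the highest, and the median score was 49 for members and 47.5 for SmcHD1 peaks without a partner. The median member was 311 bp wide and shared 281 bp with its partner. The midpoint of a member lay a median of 205.5 bp from that of its CTCF peak and 224 bp from that of its Rad21 peak, and only 28.0% and 27.2% of members lay within 100 bp. The shares depended on how close the peaks had to be: with midpoints within 250 bp, 27.8% of SmcHD1 peaks were members and 23.2% of members had both proteins. Few members rested on a very short overlap. The smallest overlap was 4 bp, 13 members overlapped by less than 50 bp, and 85 SmcHD1 peaks without a partner lay within 500 bp of a CTCF or Rad21 peak.

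Members were spread unevenly over the chromosomes. Their density was 0.618 ± 0.414 per Mb (mean ± SD of 18 autosomes), with the highest value of 1.54 on chromosome 11, followed by 1.40 on chromosome 19, and the lowest of 0.131 on chromosome 3. The share of SmcHD1 peaks that were members was 46.0% ± 14.2 and ran from 19.3% (15.3 to 24.01) on chromosome 13 to 76.1% (67.5 to 83.0) on chromosome 19. Chromosomes 11 and 19 were thus high in both measures, whereas chromosome 13 had 316 SmcHD1 peaks, of which 61 were members.

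**Figure D1:**
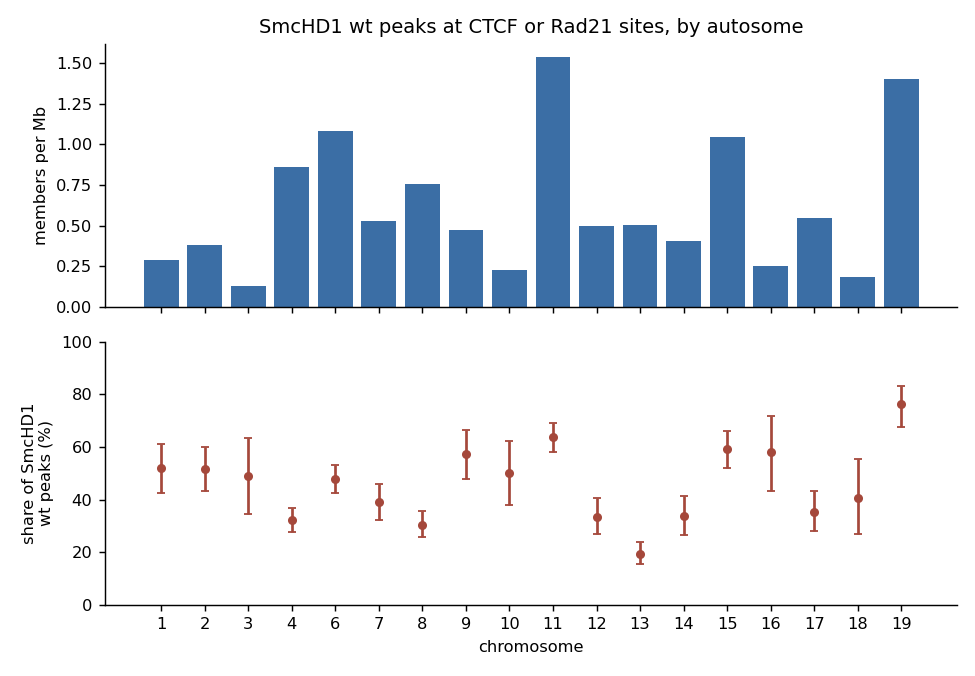
Members per Mb (bars, upper panel) and their share of all SmcHD1 wt peaks in percent (points with 95% Wilson intervals, lower panel) on each of the 18 autosomes. Chromosomes 11 and 19 carry the densest members, and the share is lowest on chromosome 13 at 19.3%.

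Members lay at promoters more often than other SmcHD1 peaks. A promoter, defined as a transcript start within 1000 bp of the peak, was found at 744 members, a share of 54.8% (52.2 to 57.5), against 21.2% (19.4 to 23.1) of SmcHD1 peaks without a partner. Of CTCF and Rad21 wt peaks without SmcHD1, 19.7% (19.4 to 20.1) and 25.5% (25.1 to 25.8) lay at a promoter, although those peaks were wider. Read the other way, 65.5% (62.7 to 68.3) of promoter SmcHD1 peaks were members, against 28.9% (26.5 to 31.4) of intergenic ones. A start of a protein-coding gene was within reach of 640 members. The start itself lay inside 357 members.

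The partner classes were not alike. Rad21-only members lay at a promoter in 66.4% (62.2 to 70.2) of cases and members with both proteins in 57.4% (53.3 to 61.3), whereas the share was 21.6% (16.8 to 27.4) for CTCF-only members, of which 54.1% were intergenic. CTCF-only members were therefore placed much like SmcHD1 peaks without any partner.

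**Figure D2:**
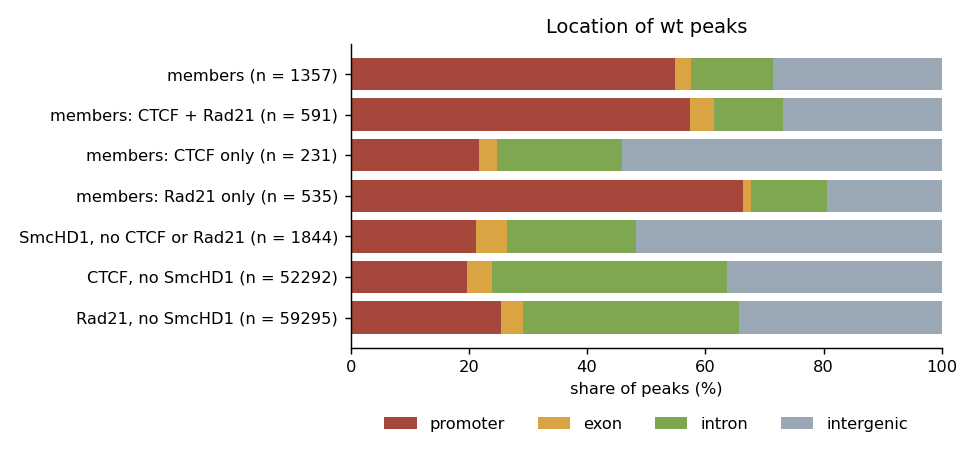
Share of peaks in percent at promoters, in exons, in introns and between genes, for all members, the partner classes, SmcHD1 peaks without CTCF or Rad21, and CTCF and Rad21 wt peaks without SmcHD1. The promoter part is longest for Rad21-only members at 66.4% and short for CTCF-only members at 21.6%.

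Promoter members were mainly CpG rich. A peak was called CpG rich at a GC content of at least 50% and an observed to expected CpG ratio of at least 0.6. This held for 52.7% of members (50.0 to 55.3) and for 13.8% (12.3 to 15.5) of SmcHD1 peaks without a partner. Among promoter peaks, the share was 80.4% (77.4 to 83.1) for members, 33.2% (28.8 to 38.1) for SmcHD1 peaks without a partner, 42.2% (41.4 to 43.0) for Rad21 and 29.6% (28.8 to 30.5) for CTCF wt peaks without SmcHD1. It was 33.8% for 300 bp promoters of the RefSeq set. Promoter SmcHD1 peaks without a partner were thus less often CpG rich than promoter members, by counts whose intervals did not overlap. CpG richness was taken over the whole peak, and promoter peaks differed in width. Their median was 300 bp for members and 365 bp for SmcHD1 peaks without a partner. It was 814 bp for Rad21 and 519 bp for CTCF wt peaks without SmcHD1, and the part of width was not tested. Away from promoters, 19.1% (16.2 to 22.4) of members were CpG rich.

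Few members held the CTCF core motif in the 300 bp around the midpoint. It was found, on either strand, in 38 of 591 members with both proteins (6.43%, 4.72 to 8.70), in 3 of 231 with CTCF only and in 0 of 535 with Rad21 only, which allows a share of up to 0.713%. CTCF wt peaks without SmcHD1 held it in 7.94% (7.71 to 8.18), SmcHD1 peaks without a partner in 1 of 1844, and RefSeq promoters in 0.573%. The strict consensus misses weaker sites. The window was also centred on the SmcHD1 peak for members and on the CTCF peak for CTCF wt peaks. As the member midpoint lay a median of 205.5 bp from that of its CTCF peak, the window often missed the CTCF midpoint. The shares are therefore not like for like and do not give the motif content of the CTCF partner peaks. Of the 41 members with the core, 11 were at promoters.

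Motifs of general promoter factors were counted next. The ETS motif CCGGAAG was found in 13.4% (11.2 to 16.1) of promoter members and 8.88% (8.56 to 9.21) of RefSeq promoters, the GC box GGGGCGGGG in 9.95% (8.00 to 12.3) and 11.5%, and the NRF1 motif in 5.51% (4.09 to 7.39) and 6.34%. The E box CACGTG was found in 8.06% and 7.05%, the YY1 motif AANATGGC in 6.72% and 6.07%, and the CRE TGACGTCA in 1.75% and 1.82%. Among these 6 motifs, only for ETS did the interval of promoter members lie above the share in RefSeq promoters. The compared sets also differed in their CpG-rich share (80.4% and 33.8%) and in the placing of the window, and the part of this was not tested. The CCAAT box was found in 14.5% (12.2 to 17.2) of promoter members and in 37.3% of RefSeq promoters, whose fixed window lies mostly upstream of the start. The AP-1 motif TGANTCA was found in 3.90% (2.73 to 5.54) of promoter members and 7.88% of RefSeq promoters. It was found in 8.26% of promoter Rad21 wt peaks without SmcHD1. Away from promoters, AP-1 was found in 16.5% (13.8 to 19.6) of members, and in 15.9% of Rad21 wt peaks without SmcHD1 at any position. Motifs were searched on both strands, and matches of different motifs may share bases.

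Repeated sequence was less frequent at members than at the other SmcHD1 peaks. The central 200 bp had a near-identical copy elsewhere, or could not be placed, for 24.5% of members (22.2 to 26.8) and for 70.4% (68.3 to 72.4) of SmcHD1 peaks without a partner. The share was 4.23% and 2.50% for CTCF and Rad21 wt peaks without SmcHD1. By class it was 61.9% (55.5 to 67.9) for CTCF-only, 23.2% (20.0 to 26.8) for both and 9.72% (7.49 to 12.5) for Rad21-only members. The part of repeated sequence in the overlaps was not tested. Among the 1571 SmcHD1 peaks without a copy, 65.2% (62.9 to 67.6) were members, and of those members 60.9% were at promoters.

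**Figure D3:**
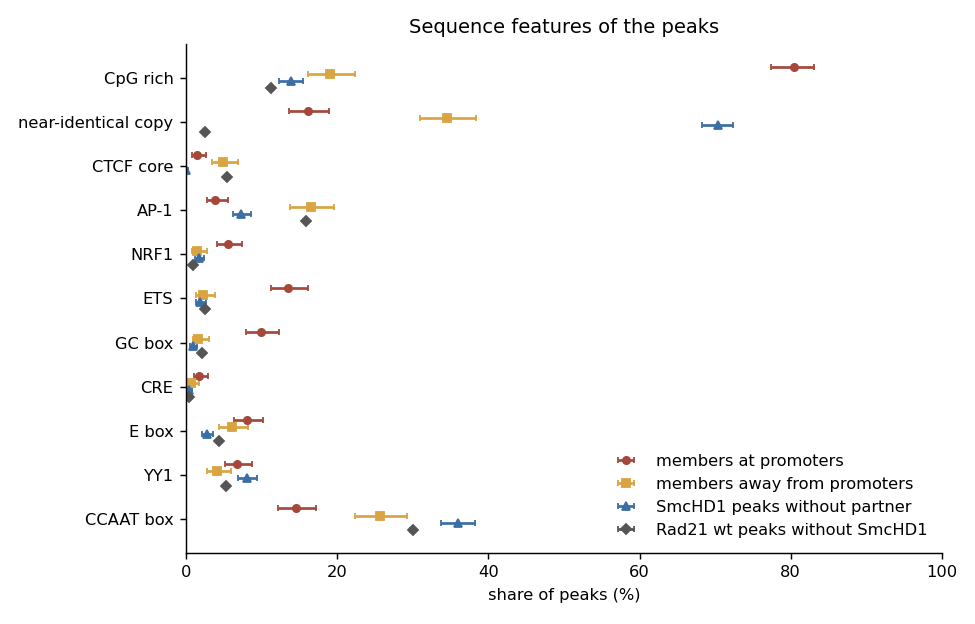
Share of peaks in percent (points, with 95% Wilson intervals) that are CpG rich, have a near-identical copy elsewhere in the genome, or hold a motif in the 300 bp around the midpoint, for promoter members, other members, SmcHD1 peaks without CTCF or Rad21, and Rad21 wt peaks without SmcHD1. CpG-rich sequence, taken over whole peaks of differing width, stands out at promoter members (80.4%), and copies at SmcHD1 peaks without a partner (70.4%).

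The strongest members lay over antibody background. Of all members, 80 (5.90%, 4.76 to 7.28) overlapped an SmcHD1 mut peak, against 4.5% of the 3201 SmcHD1 peaks and 3.47% (2.73 to 4.41) of those without a partner. The share was 10.8% (7.44 to 15.5) for CTCF-only members. The highest score among members, 18012, belonged to a peak over Gm10722 at the start of the assembled part of chromosome 9 (3000212 to 3001376), where all 8 members of a cluster of annotated Gm genes met a mut peak. Tmem267 (5933), Slc39a10 (3420), which encodes a zinc transporter, the RNA helicase gene Ddx17 (3023), Hnrnpa2b1 (2572), which encodes an RNA-binding protein, and Dagla (2368), which encodes a diacylglycerol lipase, also met a mut peak. Such signal was listed in cells without SmcHD1. Members at promoters of protein-coding genes and without a mut peak are therefore described next, a ranking chosen after the values were seen. It leaves out promoters of other gene types, some with higher scores, such as Gm27940 (917) and Mir193a (526) with both partners, Gm26391 (858) with Rad21 only and n-R5s111 (735) with CTCF only.

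With both CTCF and Rad21, the protein-coding promoter members with the highest SmcHD1 scores were those of Sfi1 (384), which encodes a centrosomal protein, Bcl11a (346), a zinc finger repressor of fetal haemoglobin genes, Gm13289 (313), Peg3 (313), Atn1 (275), a transcriptional corepressor, Gm13287 (248), the Fc receptor gene Fcgr3 (245) and Plekhg1 (228). Bcl11a had the broadest of these peaks, on chromosome 11 from 24075940 to 24080339. CTCF stood there at percentile 46.5, 53.2 and 50.5 in wt, mut and somKO, and Rad21 at 40.5, 69.5 and 60.5. At Atn1, whose peak held the CTCF core, CTCF was at percentile 90.7, 99.6 and 86.2 and Rad21 at 78.0, 93.1 and 74.3. At both genes all partner peaks remained without SmcHD1.

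With Rad21 only, the leading protein-coding promoter member was that of Inpp5f, which encodes an inositol phosphatase and hosts an imprinted transcript (score 1230, chromosome 7 from 128687781 to 128688660). Its Rad21 peak was among the weakest of the wt list at percentile 5.25, and was at 62.0 in mut and 32.8 in somKO. Vstm2l (289), Gm20715 (289), Gas2 (273), Irx3 (235), a homeobox gene, and Phf21b (206) followed among protein-coding promoters. Vstm2l had its Rad21 peak in wt at percentile 14.8 and in somKO at 36.4, and none in mut. At Irx3 the Rad21 peak was at 64.2, 75.2 and 74.9 in wt, mut and somKO. At Phf21b it was at 12.4, 51.5 and 62.5, and weak CTCF peaks were listed in mut (9.68) and somKO (1.88) alone.

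At protein-coding promoters, the highest CTCF-only members without a mut peak scored from 171 at Gm3667 and 125 at Zmym2 to 84 at Soga3. The others were Dapk3 (115), a protein kinase gene, Fmc1 (98) and Tex19.1 (90), a germline gene. All 6 had a CTCF peak in mut and in somKO. With those over a mut peak, protein-coding promoter members numbered 30 with CTCF only, 291 with both proteins and 319 with Rad21 only. Top scores of groups so unlike in size cannot be compared. Over all members, the median SmcHD1 score was 63 with CTCF only, 53 with both and 42 with Rad21 only. At Fmc1 the member overlapped the tRNA gene n-TRcct1, and CTCF stood at percentile 97.0, 98.1 and 96.0 in wt, mut and somKO, while Rad21, with no wt peak, was listed at 77.1 in mut and 83.5 in somKO.

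Away from promoters, the highest members without a mut peak in gene bodies were those nearest to Pisd-ps2 (545), Cntnap5b (385), Tchh (266), which encodes trichohyalin, Gm15531 (266), Hoxc8 (258) and Gm47297 (256). The member next to Hoxc8 (chromosome 15 from 102986411 to 102988004) lay within the Hox cluster, which orders body segments along the axis. It had CTCF at percentile 89.6, 90.7 and 84.98 and Rad21 at 98.3, 99.6 and 98.0 in wt, mut and somKO, hence strong peaks in every list. Between genes, scores were highest in the interval from Hrh1 to Atg7 (1262 and 774), near Gm49460 (836), Gm21182 (436), Gm28502 (417) and Rny3 (414).

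Over all genes, a member lay within 1000 bp of a start for 648 of 19535 protein-coding genes, which is 3.32%. Against this, cohesin and SMC genes had a member at 2 of 18 (Nipbl, which encodes the cohesin loader, and Smc2, a condensin subunit), and AP-1 and immediate early genes at 2 of 17 (Myc and Jund). Ribosomal protein genes had members at 6 of 82 (7.32%, 3.40 to 15.1), mitochondrial ribosome genes at 6 of 74, translation factors at 5 of 60, heat shock genes at 5 of 68, proteasome genes at 2 of 46, zinc finger genes at 14 of 367 (3.81%, 2.29 to 6.30), Hox genes at 2 of 39 (Hoxc5 and Hoxd9) and collagens at 1 of 42 (Col27a1). These are small counts with wide intervals. Large repeated families expressed in other tissues had none, counted over protein-coding genes. This was 0 of 1127 olfactory receptor genes, which allows a share of up to 0.340%, 0 of 318 vomeronasal receptor genes and 0 of 66 defensin genes. Few of them could have a member. A Rad21 wt peak lay at a start of 18, 6 and 3 of these genes and a CTCF wt peak at 17, 6 and 9, so the counts of 0 say little. The vomeronasal pseudogene, Vmn2r-ps31, had a member (score 68). Protocadherins, with 47 of 66 genes at a CTCF wt peak, had no member either, and replication-dependent histones had 1 of 67. An SmcHD1 wt peak of any kind lay at a start of only 1 gene in each of these lists, so these counts say little too.

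Small RNA genes were set beside all annotated genes, of which 891 of 47940 (1.86%) had a member. The list of genes with Rnu symbols had 6 of 22 entries with a member. They were Rnu1a1, Rnu2-10 (score 282, over a mut peak), and Rnu3b3 and Rnu3b4 with 2 entries each, which encode the U3 snoRNA. microRNA genes had members at 11 of 1034, led by Mir193a (526), and snoRNA genes at 2 of 134. tRNA genes of the RefSeq annotation, a list added after the values were seen, had a member within 1000 bp at 31 of 381 genes (8.14%, 5.79 to 11.3). As only 12 members reached these 31 genes, the genes were not counted independently. SmcHD1 peaks without a partner lay as close to 22 of the 381 (5.77%, 3.84 to 8.59), with overlapping intervals, and a Rad21 wt peak to 188. The cluster near Fcgr3 on chromosome 1 held 3 such members, each within 1000 bp of 4 or 5 tRNA genes, with scores of 245, 179 and 240.

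Imprinted genes had members at 10 of 40 (interval 14.2 to 40.2%), and 22 of the 40 had a Rad21 wt peak at a start. Among all annotated genes with a Rad21 wt peak at a start, 5.81% had a member, and among the imprinted ones 45.5%. This was not particular to members. An SmcHD1 wt peak, with or without a partner, lay at a start of 15 of the 40 imprinted genes and of 1223 of 47940 annotated genes. Of the genes with such a peak, 10 of 15 imprinted ones and 891 of 1223 in all had a member. The 10 genes shared 8 peaks. The list was fixed with earlier results known. Its strongest members were those of Inpp5f (1230), Plagl1 (542), a zinc finger gene whose member met a mut peak, and the peak shared by Peg3 and Usp29 (313), paternally expressed genes with starts in opposite directions. Others, chosen after values were seen, were the peak shared by Peg10 and Sgce (206), and those of Grb10 (144), Airn (69), Peg13 (36) and Ube3a (24).

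The Rad21 rank at imprinted members was mostly higher in mut than in wt. At Peg3, Rad21 stood at percentile 29.7, 83.9 and 71.5 in wt, mut and somKO, and CTCF at 19.8, 55.1 and 38.5. At Plagl1, Rad21 was at 30.8, 64.4 and 48.0, and at Peg10 at 54.4, 74.1 and 71.1. Grb10 had Rad21 at 84.4, 96.0 and 57.8 and CTCF at 69.0, 80.1 and 32.4. Rad21 was higher in mut than in wt at 7 of the 8 imprinted members, with a median difference of 15.6 points, and in somKO at 6 of 8. Over all members with Rad21 in both lists, it was higher in mut at 637 of 997 (63.9%), with a median of 3.33 points, and in somKO at 957 of 1092, with a median of 7.91. Rad21 peaks without SmcHD1 that were retained also ranked higher, by a median of 1.15 points in mut and 8.61 in somKO, whose list is longer. A rank in 1 merged list has no error, and strain of origin at each locus, which differs between F2 clones, cannot be told apart from genotype.

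Genes of developmental regulators, also listed after the values were seen, had members at 8 of 135 homeobox and forkhead genes (5.93%, 3.03 to 11.3) and at 2 of 33 Gata, Sox and Tbx genes. The members of Irx3, Foxp2 (132), Gata6 (171) and Sox9 (29) had Rad21 and no CTCF in wt. At Sox9, Rad21 was listed at percentile 99.1, 71.0 and 88.5. Pitx3 (107) had CTCF at 96.1 and Rad21 at 98.7 in wt, and both remained.

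Most members stood alone, 919 of 1357 with no other member within 20 kb, but 105 lay in 8 clusters of at least 6. The largest covered the interferon zeta genes on chromosome 4 (88757221 to 88806561), a family of type I interferons of the mouse. It held 29 SmcHD1 wt peaks, of which 28 were members, all at promoters and all with 10 to 15 near-identical copies. No SmcHD1 mut peak was listed there. A member lay at 16 of 20 genes listed by symbol (Ifnz and the range from Gm13271 to Gm13290), after values were seen. This list is not an annotation of the family, and it includes the antisense gene Gm13274. CTCF ranked between percentile 99.8 and 99.9 at all 28 members in wt, and a CTCF peak met 27 of them in mut and 28 in somKO. Rad21 met 19 in wt, of which 18 kept it in mut and 19 in somKO, where 27 met a Rad21 peak in all. CTCF peaks were therefore listed across the cluster with and without SmcHD1. The cluster held 14 CTCF peaks in the wt list, 17 in the mut list and 12 in the somKO list, so that members shared peaks and were not counted independently. As its units are near-identical, a peak in 1 unit can come from reads of another, and this was not tested.

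The interval between Hrh1 and Atg7 on chromosome 6 (114483297 to 114643096) behaved differently. It held 94 SmcHD1 wt peaks and 1 mut peak, and its 18 members, all in sequence with further copies, reached a score of 1262. CTCF partners in its main cluster were weak, at percentile 0.109 to 11.8 in wt. Of the 10 members with CTCF in wt, 1 kept it in mut and 6 in somKO. Of the 12 with Rad21, 4 kept it in mut and 6 in somKO. The whole interval held 10 CTCF peaks in the wt list, 21 in the mut list and 33 in the somKO list, so that peaks were listed in every genotype, often at other places. A peak in 1 copy of repeated sequence can come from reads of another copy, and this was not tested.

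**Figure D4:**
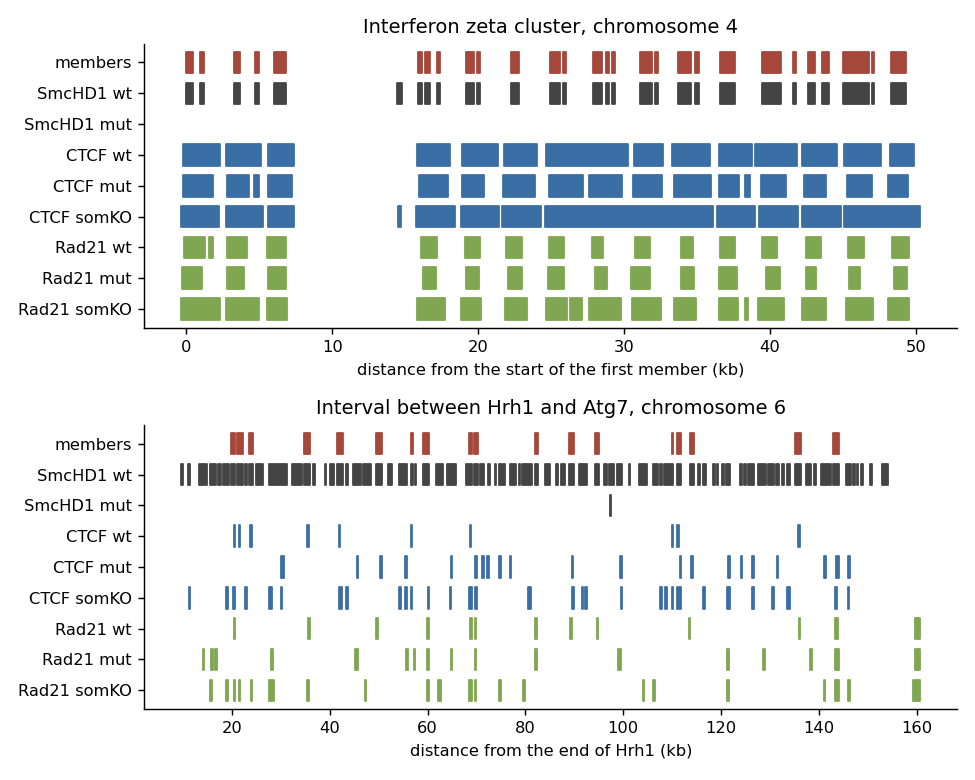
Peaks of every list in the interferon zeta cluster and in the interval between Hrh1 and Atg7, as boxes along the distance in kb, with the members in the top row of each panel. In the first, CTCF peaks recur at the same places in wt, mut and somKO, and in the second, 94 SmcHD1 wt peaks stand over few CTCF and Rad21 peaks whose places differ between lists.

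On the same chromosome, 30 members lay between 47650656 and 47773119, in the region that holds Rn4.5s, a gene of the small 4.5S RNA, and Rny3, a Y RNA gene. Of these 30, 29 lay in sequence with copies elsewhere. All 30 met a CTCF peak in every genotype, and 7 met an SmcHD1 mut peak. Rad21 met 7 of them in wt, 18 in mut and 13 in somKO. The 5S rRNA array on chromosome 8 (123538786 to 123622046) was the opposite case. It held 42 SmcHD1 wt peaks, 2 mut peaks and 4 members, of which the highest (865) met a mut peak, and no CTCF or Rad21 peak met any of these 4 in mut or in somKO. All 4 lay in sequence with copies. In both regions a peak can come from reads of another copy, and this was not tested. Other clusters lay at Sfi1 on chromosome 11, at H2-D1 in the major histocompatibility complex on chromosome 17, and on chromosome 12.

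To ask whether CTCF and cohesin stayed at members when SmcHD1 was absent, the wt partner peaks were sought in the other genotypes. Nearly all remained. Of 747 CTCF partner peaks, 688 (92.1%, 89.95 to 93.8) met a CTCF mut peak and 717 (96.0%, 94.3 to 97.2) a somKO peak, against 80.9% and 92.2% of all CTCF wt peaks of these chromosomes. Of 1074 Rad21 partner peaks, 962 (89.6%, 87.6 to 91.3) met a Rad21 mut peak and 1044 (97.2%, 96.0 to 98.0) a somKO peak, against 72.2% and 92.8% of all Rad21 wt peaks. Counted by member, every wt protein was still listed at 1161 of 1357 members in mut, at 1290 in somKO and at 1132 in both.

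Retention rose with the wt score, and CTCF partners were often strong. Of CTCF partner peaks, 44.3% were in the highest quartile of the CTCF score, and 22.8% in the lowest. In the highest quartile, 331 of 331 CTCF partners remained in mut. In the lowest, 68.2% (60.9 to 74.8) remained, against 45.5% (44.6 to 46.3) of CTCF peaks without SmcHD1. For Rad21 in the lowest quartile, 61.3% (51.8 to 70.04) remained in mut, against 43.0% (42.2 to 43.8), and in the second quartile 80.5% (75.03 to 85.01) against 61.2% (60.4 to 62.0). In these classes of the score the partners remained more often in mut than other peaks. They were also wider, with medians of 762 bp for CTCF and 1141 bp for Rad21 against 440 and 576 bp without SmcHD1, which makes an overlap of 1 bp easier to reach, and the part of width was not tested.

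When peaks without SmcHD1 were weighted to the score quartiles of the partners, their retained share was 84.4% for CTCF in mut, which is 7.74 points below the partners, and 79.9% for Rad21 in mut, 9.71 points below. In somKO the weighted shares were 92.9% and 96.3%, and the partners exceeded them by 3.06 and 0.925 points. For CTCF in somKO the order depended on the overlap asked for. When both peaks had to share 50% of their length, CTCF partners were retained in 78.7% and CTCF peaks without SmcHD1 in 80.4%, and with lists of equal length the shares were 89.9% and 89.6%. For Rad21 in somKO the shares were 70.8% and 58.7% with the first setting and 94.7% and 87.6% with the second. The mut comparisons kept their order under both settings.

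**Figure D5:**
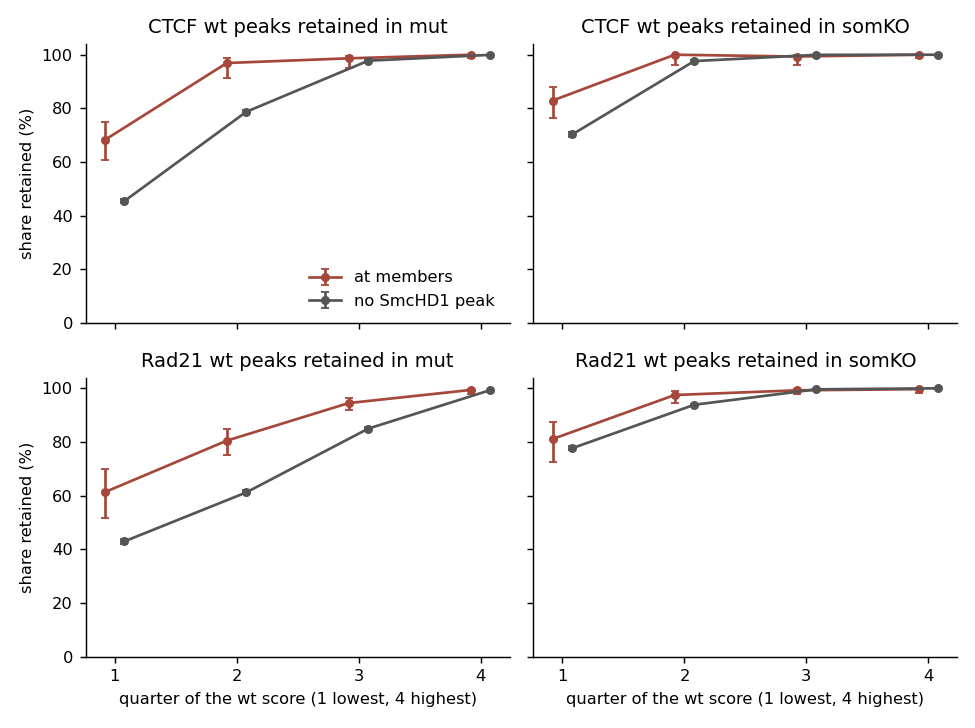
Share in percent of CTCF (upper panels) and Rad21 (lower panels) wt peaks that met a peak of the same protein in mut (left) and somKO (right), by quartile of the wt score, with 95% Wilson intervals, for partners of members and for peaks without SmcHD1. In mut, partners lie above other peaks in the lower quartiles (68.2% against 45.5% for CTCF in the lowest), and the curves meet in the highest.

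The same order held along the genome for mut, in shares that were not weighted by score. Partners with higher scores can thus add to the differences per chromosome. Over 14 chromosomes with at least 20 CTCF partners, the share retained in mut was higher at partners than at peaks without SmcHD1 on 14 of 14, by 11.9 ± 6.97 points (mean ± SD over chromosomes). For Rad21 it was higher on 16 of 16, by 19.02 ± 7.60 points. In somKO it was higher on 11 of 14 for CTCF and on 15 of 16 for Rad21, by 3.80 ± 4.10 and 4.96 ± 4.14 points, about the size of the spread between chromosomes.

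Retention in mut differed with position and with the second protein. CTCF partners at promoters remained in 97.6% (95.5 to 98.7) and those elsewhere in 86.6% (82.8 to 89.7). For CTCF peaks without SmcHD1 the shares were 88.4% and 78.9%. Rad21 partners at promoters remained in 95.7% (94.0 to 97.0) and those elsewhere in 78.8% (74.5 to 82.6), against 86.9% and 66.8%. CTCF partners that also met Rad21 remained in 97.1%, and those without in 74.4% (67.2 to 80.5). Rad21 partners with CTCF remained in 95.3%, and those without in 79.3% (75.01 to 83.1). Partners in sequence with copies remained less often, in 83.8% (78.5 to 88.0) for CTCF and 77.9% (71.1 to 83.5) for Rad21, against 95.8% and 91.8% of those without.

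Loss of every wt partner in mut fell mainly on members with 1 wt protein. No wt protein was left at 151 members in mut (11.1%), at 50 in somKO (3.69%) and at 32 in both (2.36%, 1.68 to 3.31). Of the 50 in somKO, 32 were thus also without any in mut. Among members with both proteins, 6 of 591 had neither in mut. The counts were 50 of 231 (21.65%, 16.8 to 27.4) for CTCF-only and 95 of 535 (17.8%, 14.8 to 21.2) for Rad21-only members. In somKO they were 1, 19 and 30 for these classes. A member with both proteins had to lose both to be counted. At 118 members no wt protein was left in mut while every wt protein was listed in somKO. Of the partner peaks, 20 of 747 for CTCF (2.68%) and 18 of 1074 for Rad21 (1.68%) were absent from mut and somKO, below the 5.91% and 5.81% of all wt peaks.

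For 32 members, no wt partner was listed again in mut or in somKO. Among them, the strongest wt partner was the Rad21 peak at the promoter of Lrif1, which encodes a nuclear protein known to bind SmcHD1 (chromosome 3 from 106721454 to 106721670, SmcHD1 score 84). It stood at percentile 60.8 of the Rad21 wt list and was in neither the mut nor the somKO list. Next by this rank, with each gene taken once, were Gm26391 (38.2) and Gm22291 (12.4), both in the 5S rRNA array, members in the interval between Hrh1 and Atg7 (28.1 and 12.4), and the promoters of Ahnak2 (21.8), Sez6 (16.1), a neuronal gene, and Nxph1 (16.1), which encodes a neurexin ligand. Apart from Lrif1, these lay in the lower part of the Rad21 wt list, and all but those of Lrif1, Sez6 and Nxph1 were in sequence with copies.

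A partner not listed over the member in wt was sometimes listed there in mut or somKO. At Rad21-only members, a CTCF peak was present at 105 of 535 (19.6%, 16.5 to 23.2) in mut and at 114 (21.3%, 18.05 to 24.98) in somKO. For all Rad21 wt peaks without CTCF, the shares were 8.69% and 10.8%. At CTCF-only members, a Rad21 peak was present at 72 of 231 (31.2%, 25.5 to 37.4) in mut and at 101 (43.7%, 37.5 to 50.2) in somKO, against 16.9% and 40.7% of all CTCF wt peaks without Rad21. The last pair had overlapping intervals. The sides of these comparisons are not alike, as a member was judged over the SmcHD1 peak and a wt peak over its own width. Of 1074 Rad21 partner peaks, 387 had no CTCF in wt, and of 747 CTCF partner peaks, 164 had no Rad21. A Rad21-only or CTCF-only member can thus lie on a peak that met the other protein beside the member in wt. SmcHD1 peaks without a partner in wt met a CTCF peak in 3.15% of cases in mut and 5.86% in somKO, and a Rad21 peak in 6.02% and 7.59%.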

How the data were processed

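The values were 8 peak lists of ChIP-seq from female clonal MEFs, covering SmcHD1 (wt and mut) and CTCF and Rad21 (wt, mut and somKO). The authors aligned reads with Bowtie2 to mm10 with strain variants masked, merged the replicates of a group and called narrow peaks with MACS2 on reads of both alleles. Tool versions, the handling of reads with several placements and the use of inputs were not given in the sources used here. The deposited score, whose lowest value was 13 in every list, was taken to be a scaled -log10 q-value and served only to rank peaks of the same list. Depth is unknown, as the files give no reads per peak. H3K27me3 and input libraries were not used here.

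Peaks were intersected in Python 3.11.15 (pandas 2.3.3, pysam 0.24.0). Genes came from GENCODE M21 and sequence from the RefSeq copy of the same build (GRCm38). The central 200 bp of each peak were aligned to chromosomes 1 to 19, X and Y with minimap2 2.31, and another match of at least 90% identity over 80% of the window counted as a copy, as did a window that could not be placed. Shares carry 95% Wilson intervals, which cover counting error only. With 1 list per group there was no replicate error, and no p-value was computed. Overlap and motif steps were tested on simulated data. The members and lists were chosen with earlier results of these data known. Named genes were the highest by SmcHD1 score in each class (protein-coding promoters by partner, gene bodies, intergenic), plus up to 4 for each gene list (8 for imprinted genes). That ranking was also run without members over an SmcHD1 mut peak, and lists of tRNA, 5S rRNA, interferon zeta, homeobox and forkhead, and Gata, Sox and Tbx genes were added, after values were seen.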

Additional observations from a re-analysis of the deposited data

How the results depend on the processing

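No replicate could be left out, because each list merges its libraries. No paired analysis was possible because the results come from no test. Over 67 alternative values of 11 results, 36 stayed within the counting interval of the reported value, or within 1.5 times a count, and 31 did not. Settings on copies and on SmcHD1 mut peaks were chosen after seeing the data. The cause of the shifts was not tested.

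Members numbered 889 with midpoints within 250 bp and 657 at an SmcHD1 score of at least 50. The member share was 38.2% with 50% of the SmcHD1 peak covered, 27.8% by midpoints, 29.7% with partners in the upper 50% of their list, 65.2% without copies and 38.6% with chromosome 5 and the segment of chromosome 1 kept in. Both proteins were present at 37.2% with 50% covered and 23.2% by midpoints. The promoter share was 48.6% at the score of 50, 60.9% without copies, 48.7% and 59.2% with windows of 500 and 2000 bp, and 47.2% for protein-coding genes. CpG-rich members were 61.3% without copies and 40.9% at a ratio of at least 0.75. The CTCF core share was 4.20% with partners in the upper 50%. The share over SmcHD1 mut peaks was 10.8% at the score of 50 and 4.29% without copies.

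With 50% of both peaks shared, retention was 76.0% and 78.7% for CTCF in mut and somKO and 72.2% and 70.8% for Rad21. With shortened lists it was 94.3% and 89.9% for CTCF and 94.7% for Rad21 in somKO. At the score of 50 it was 86.2% and 95.5% for Rad21. Without copies it was 95.8% for CTCF in mut and 91.8% and 98.4% for Rad21. Leaving out members over an SmcHD1 mut peak, or chromosome 14, moved none of the values it was run on.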
